A study of Rattus norvegicus with 8 samples.

Results

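The gene Tg encodes thyroglobulin. It was 1 of 14218 genes named on the rat array, which carried 2 probe sets with its symbol, 1369744_at and 1370764_a_at, out of 31099 probe sets in all. A probe set is a group of short probes read together to give 1 signal. Members were chosen by gene symbol alone, and both passed the filter on low signals, which kept 18625 probe sets. In the platform annotation they were designed from 2 different sequence records, and the RefSeq gene table (assembly GRCr8) lists 3 Tg transcripts. The suffix a_at is the array maker's mark for probes that match several transcripts of 1 gene. Which transcripts each probe set reads was not analysed here.

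Thyroglobulin is a very large glycoprotein that thyroid follicular cells secrete into the follicle lumen, where it is the scaffold on which thyroid hormone is made. Iodide is coupled to its tyrosines with hydrogen peroxide from the DUOX oxidases, and the iodinated protein is later taken up and cut by lysosomal proteases to free the hormone. Its gene is a classical target of the thyroid transcription factors NKX2-1, PAX8 and FOXE1, and it is a standard readout of the differentiated state in FRTL-5, a rat follicular cell line that depends on thyrotropin (TSH).

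The series measured 8 arrays of the SB5 sub-clone of FRTL-5 with stable expression of the human TSH receptor, either wild type (WT) or carrying L629F, a substitution that keeps the receptor active without hormone. Sodium iodide at 1 mM was set against sodium chloride at 1 mM in each line, and every culture had 5 mU/ml bovine TSH. The 4 groups had 2 arrays each. The series used this as a cell model of thyroid autonomy and asked how iodide changes its transcripts. The labels name 1 line per receptor, so receptor and line cannot be told apart. They do not state that replicate arrays came from separate cultures, and the p-values below therefore describe only the spread between arrays, which may be technical.

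Signals were linear MAS5 intensities, and every array had been brought to the same trimmed mean before deposit. Median signals were 118 to 127 on WT arrays and 138 to 147 on L629F arrays. Correlations between the 2 arrays of a group were 0.946 to 0.965 over the kept probe sets. The thyroid label of the cells was checked on 12 follicular cell markers. Of the 11 on the array, 8 were kept (Tg, Tshr, Slc5a5, Pax8, Nkx2-1, Foxe1, Duox2 and Krt8), and the epithelial markers Cdh1, Krt18 and Epcam were too dim. The summed signal of the follicular list, Tg included, was 32029 to 44805 per array. The sums of the C cell, fibroblast, endothelium and leucocyte lists (4 to 6 markers on the array each) were 149 to 506, sums of different probes that cannot be set against the follicular one. Of these lists Ret (C cell), Col1a1 and Pdgfra (fibroblast), Vwf (endothelium) and Cd3e and Lyz2 (leucocyte) were kept, and the others, such as Calca, Col3a1, Pecam1 and Ptprc, were too dim. No marker of these other cell types passed for salt or receptor averaged over the other factor, where 0.848% and 1.73% of all kept probe sets did.

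On 1369744_at the signal in WT cells was 12335 and 13477 with chloride and 10747.5 and 13846 with iodide. In L629F cells it was 15811 and 16582 with chloride and 13609 and 13929 with iodide. The L629F chloride arrays were thus the highest of all 8. The L629F salts did not overlap, which held for 36.8% of kept probe sets. The WT iodide arrays were the furthest apart, and their range enclosed that of the WT chloride arrays. The group means were 16196 ± 545 for L629F chloride, 13769 ± 226 for L629F iodide, 12906 ± 807 for WT chloride and 12297 ± 2191 for WT iodide (SD, n = 2 each). In this order the highest group stood apart from the rest. L629F iodide stood apart from WT chloride but overlapped WT iodide, and the WT groups overlapped each other. Groups of 2 arrays often stood apart, as L629F and WT with chloride did in 46.2% of kept probe sets.

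On 1370764_a_at the signal in WT cells was 5751 and 6852 with chloride and 9481 and 12508 with iodide. In L629F cells it was 6662.5 and 7724 with chloride and 7763 and 11052 with iodide. All 4 iodide arrays were therefore above all 4 chloride arrays, a separation found in 6.27% of kept probe sets in either direction and in 3.41% with iodide higher. However, the lowest iodide array (7763) was close to the highest chloride array (7724). The group means were 10994 ± 2140.2 for WT iodide, 9408 ± 2325 for L629F iodide, 7193 ± 750.5 for L629F chloride and 6302 ± 779 for WT chloride (SD, n = 2 each). The iodide groups overlapped each other, and so did the chloride groups. Iodide and chloride did not overlap within WT cells either, which held for 40.5% of kept probe sets. The order of the groups was thus not the same on the 2 probe sets, with L629F chloride highest on one and WT iodide highest on the other.

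**Figure D1:**
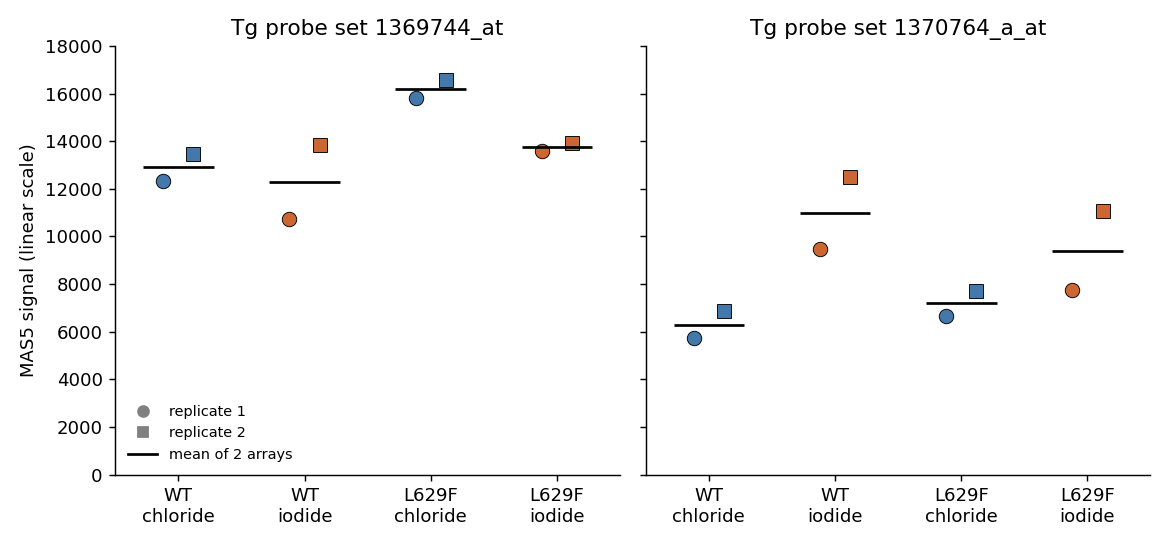
MAS5 signal (linear scale) of each Tg probe set on the 8 arrays by group; circles and squares are replicate arrays 1 and 2, bars are means of 2 arrays, blue is chloride and orange is iodide. On 1370764_a_at the iodide arrays sit between 7763 and 12508 and the chloride arrays between 5751 and 7724, while on 1369744_at only the L629F chloride arrays, at 15811 and 16582, stand above the rest.

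Iodide against chloride was tested first, since the response to iodide is what the series addressed. Changes are differences of log2(signal + 35.3), where 35.3 is small beside the Tg signals. On 1370764_a_at the mean signal with iodide was 1.74 times that with chloride in WT cells and 1.31 times in L629F cells. The log2 change was 0.79 ± 0.18 in WT cells (SE, 95% interval 0.40 to 1.19; limma adjusted p = 0.13) and 0.37 ± 0.18 in L629F cells (-0.027 to 0.76; adjusted p = 0.735). Averaged over the lines it was 0.58 ± 0.13 (0.30 to 0.86; unadjusted p = 0.000612, adjusted p = 0.0601), just outside the threshold of 0.05 after Benjamini-Hochberg adjustment over all kept probe sets. On 1369744_at the iodide mean was 0.953 times the chloride mean in WT cells and 0.85 times in L629F cells. The log2 changes were -0.080 ± 0.13 (-0.37 to 0.21; adjusted p = 0.9) and -0.23 ± 0.13 (-0.52 to 0.053; adjusted p = 0.778). Their average was -0.16 ± 0.094 (-0.36 to 0.046; adjusted p = 0.552).

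Neither Tg probe set thus passed for iodide in any of these tests, and their estimated changes had opposite signs in both lines. Without WT iodide replicate 1, however, the WT change on 1369744_at was 0.10. Over all kept probe sets 0.236% passed in WT cells, 0.0161% in L629F cells and 0.848% for the average. The threshold result on 1370764_a_at depended on the setting. It passed in 5 of 22 alternatives, among them the fit without WT iodide replicate 1 (0.68). It also passed with the dimmest 60% of probe sets left out (limma adjusted p = 0.0484) and with each array centred on its median over all probe sets (adjusted p = 0.049). A further setting had the beta-actin ratio described below as a covariate (adjusted p = 0.0432). The fifth had the replicate number as a block and gave 0.58 with the smallest adjusted p of the 5 (0.00122). With this block the WT change passed as well (0.79, adjusted p = 0.00316). The labels name no batch shared by arrays of the same number. Deviations of same-numbered arrays correlated at 0.044 to 0.21, all 6 positive, and whether such arrays were handled together was not tested.

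Bright probe sets as a class were higher on iodide arrays, which bears on both Tg values. Of the kept probe sets, 776 had a mean signal over 5000, a limit chosen after the Tg signals were known, and their median iodide change was 0.16 against -0.0030 over all 18625. Relative to that median, 1369744_at was lower by -0.32 and 1370764_a_at higher by 0.42. Of the 776, 53 had a change as low as or lower than that of 1369744_at, and 3, with the probe set itself, had one as high as that of 1370764_a_at. Quantile scaling, which gives all arrays 1 distribution of signals, took the median of the bright class to 0.016. It put 1369744_at at -0.38 ± 0.071, past the threshold (adjusted p = 0.0326), and 1370764_a_at at 0.45 ± 0.11 (adjusted p = 0.0823). Cyclic loess scaling, added after the data were seen, gave -0.31 (adjusted p = 0.0837) and 0.46 (adjusted p = 0.0929). The call on 1369744_at therefore differed with the scaling, while the opposite signs of the probe sets did not.

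**Figure D2:**
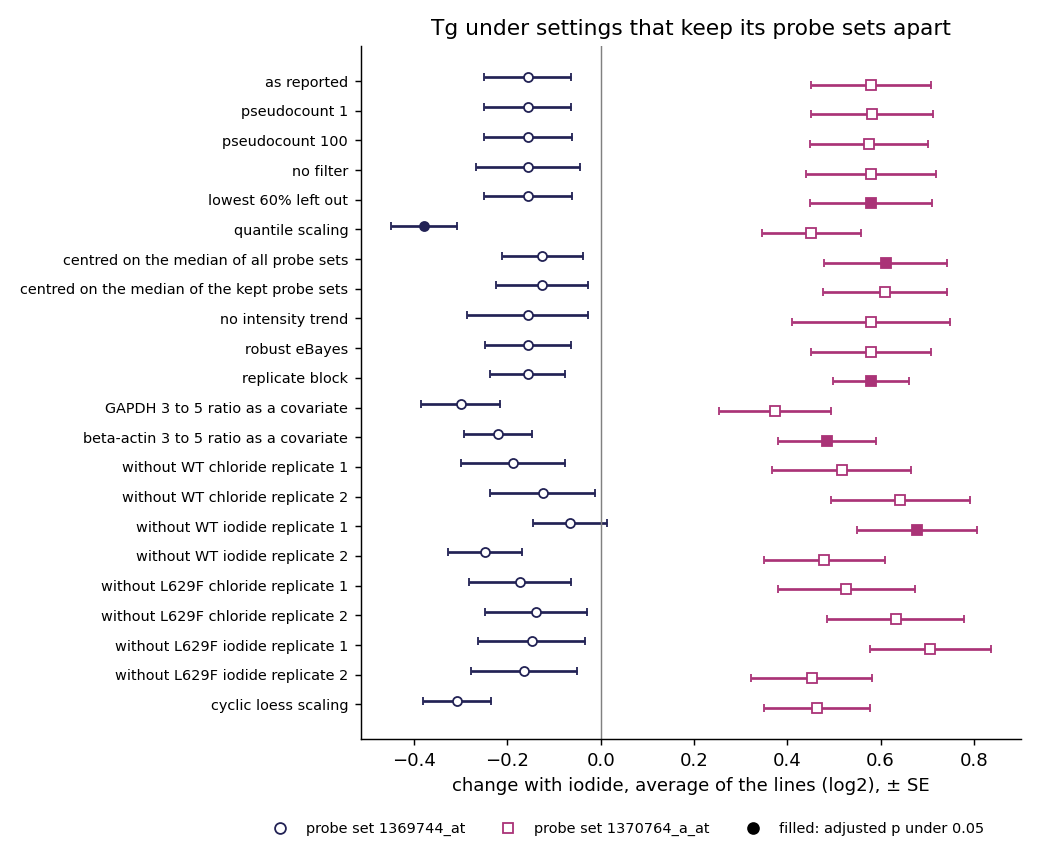
Change with iodide averaged over the lines (log2, ± SE) for each Tg probe set under the settings that keep the probe sets apart, with filled symbols where the adjusted p was under 0.05. The values of 1370764_a_at lie between 0.37 and 0.71 and those of 1369744_at between -0.38 and -0.065; the mean of both probe sets, not drawn, gave 0.21.

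The disagreement itself was measured as the signal of 1369744_at over that of 1370764_a_at on each array. The size of such a ratio says nothing on abundance, since different probes have different brightness, and only its change between arrays can be read. The ratio was 2.14 and 1.97 on the WT chloride arrays and 1.13 and 1.11 on the WT iodide arrays. The L629F ratios were 2.37 and 2.15 with chloride and 1.75 and 1.26 with iodide. Every iodide array was below every chloride array, in each line and over both lines together. The L629F iodide arrays were the least alike, with 1 near the WT iodide arrays and 1 between them and the chloride arrays.

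**Figure D3:**
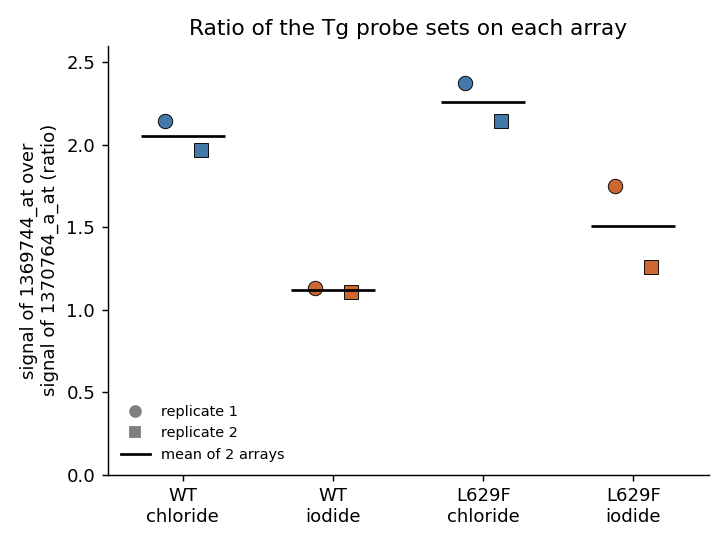
Signal of 1369744_at divided by the signal of 1370764_a_at (linear ratio) on each of the 8 arrays by group, with symbols, bars and colours for replicates, means of 2 arrays and salts. The chloride arrays lie between 1.97 and 2.37 and the iodide arrays between 1.11 and 1.75.

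On the log2 scale the ratio changed with iodide by -0.87 ± 0.26 in WT cells (SE, 95% interval -1.44 to -0.30), by -0.60 ± 0.26 in L629F cells (-1.17 to -0.027) and by -0.74 ± 0.18 on average (-1.14 to -0.33; unadjusted p = 0.00252). The same ratio was fitted for all 2832 genes with at least 2 kept probe sets, as the brightest minus the next brightest. In that limma fit the Tg ratio ranked 7 by p for the average, and after adjustment over the 2832 genes it did not pass (adjusted p = 0.735; 0.699 in WT and 0.999 in L629F cells). No gene passed in this fit for the average, that is 0%, and 156 had an unadjusted p under 0.05. Iodide and chloride arrays did not overlap in the ratio for 3% of the genes, and for 0.953% with the iodide arrays lower, as for Tg. Within WT cells 36.1% of the genes had ratios that did not overlap, and within L629F cells 30.3%, so that the separation within 1 line was common.

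Other genes give the scale of the Tg ratio change. A change of at least this size in either direction was found in 50 of the 2832 genes (1.77%), Tg included. The changes of the 2 probe sets had opposite signs in 41.3% of the genes, so the sign by itself was ordinary. Both probe sets passed on their own in 7 genes, and in 0 of these with opposite signs. Among the 29 genes whose 2 brightest probe sets both had mean signals over 5000, the Tg ratio was the only one with a change of that size, and the median absolute change of these genes was 0.15. The next in size was Pdcd4 at 0.50, and the lowest after Tg was Ywhab at -0.16, both named after their values were seen. These bright genes are a description and no test of Tg.

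**Figure D4:**
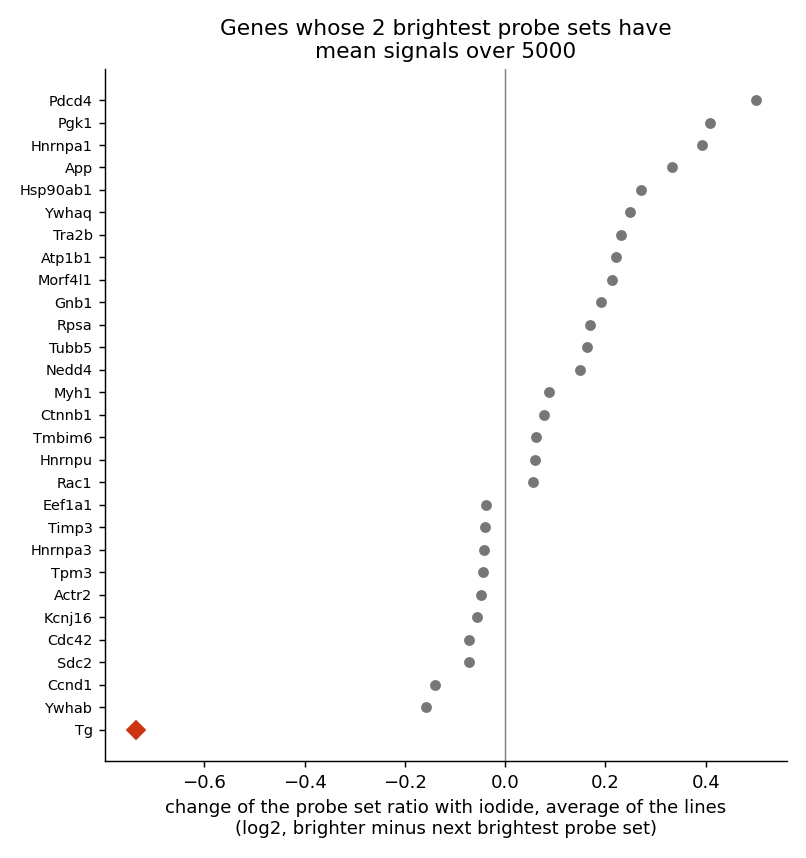
Change of the probe set ratio with iodide, averaged over the lines (log2, brighter minus next brightest probe set), for the 29 genes whose 2 brightest probe sets both had mean signals over 5000, sorted by value. Tg (red diamond) lies at -0.74 and the other 28 genes (grey) between -0.16 and 0.50.

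Over the 8 arrays the log2 signals of the 2 probe sets had a Pearson r of -0.11 (exact permutation p = 0.809) and a Spearman rho of 0.071 (exact permutation p = 0.882). Without the 2 arrays farthest from the median on 1369744_at, r was 0.17. Over the 2832 genes the median r between 2 probe sets of a gene was 0.15, and 29.7% had an r as low as that of Tg. Within groups the picture was different. In each of the 4 groups the array with the higher signal on 1369744_at also had the higher signal on 1370764_a_at, with a correlation of 0.73 between deviations from the group means, which rest on 4 independent differences. The probe sets therefore differed in the same direction between replicate arrays, but not always by like amounts. The log2 gaps on 1369744_at and 1370764_a_at were 0.36 and 0.40 in WT iodide, but 0.033 and 0.51 in L629F iodide. How often 2 probe sets of other genes share their direction in this way was not computed. Their estimated changes with iodide, for Tg, had opposite signs and neither passed.

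The ratio of signal at the 3′ end to that at the 5′ end of a control transcript is higher where RNA is degraded or copied incompletely, which matters for a long mRNA such as that of Tg. The GAPDH ratio was 1.22 and 1.55 on WT chloride arrays, 1.40 and 3.13 on WT iodide arrays, 1.54 and 2.17 on L629F chloride arrays and 2.27 and 2.49 on L629F iodide arrays. Its geometric mean was 1.41 times as high with iodide as with chloride (exact two-sided permutation p = 0.171 over 4 against 4 arrays, 0.457 adjusted over 4 such tests). The beta-actin ratio was 1.25 times as high (exact permutation p = 0.543, adjusted 0.543). Another control, hexokinase, was added after its values were seen and is given without a test. The geometric mean of its ratio was 5.67 with iodide (2.33 to 10.8) and 3.12 with chloride (1.76 to 4.27). In all 4 groups the array with the higher signals on both Tg probe sets, replicate 2 in each, was also the one with the higher GAPDH and beta-actin ratios. In deviations from the group means, the log2 GAPDH ratio correlated at 0.98 with 1369744_at and at 0.76 with 1370764_a_at. The log2 beta-actin ratio did so at 0.93 and 0.74. These correlations, too, rest on 4 independent differences. How many other probe sets follow the control ratios as closely was not computed, so they are not shown to be particular to Tg. The array with the higher Tg signals also had the higher hexokinase ratio in 2 of 4 groups, not in WT chloride and L629F iodide.

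The probe sets, their ratio and the control ratios gave 7 relations over the 8 arrays, and none passed after adjustment. The highest r was that of the log2 GAPDH ratio with 1370764_a_at, at 0.77 (rho 0.76; exact permutation p = 0.0306 and 0.0368, adjusted 0.214 and 0.16), and it was 0.41 without the 2 arrays farthest from the median GAPDH ratio. With the GAPDH ratio against the ratio of the Tg probe sets, r was -0.48 and rho -0.48 (exact permutation p = 0.208 and 0.243, adjusted 0.364 and 0.34), and r was -0.053 without the same arrays. With the log2 beta-actin ratio, r was 0.66 for 1369744_at, 0.60 for 1370764_a_at and -0.22 for the ratio of the Tg probe sets. Without the 2 arrays farthest from the median beta-actin ratio, these values were 0.28, 0.70 and -0.52. With the log2 GAPDH ratio as a covariate in the fit, the average iodide change was 0.37 ± 0.12 on 1370764_a_at (adjusted p = 0.164) and -0.30 ± 0.084 on 1369744_at (adjusted p = 0.116). The change of the ratio of the Tg probe sets with this covariate was -0.67 ± 0.22, against -0.74 without it.

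L629F against WT asks whether the active receptor goes with another Tg level. On 1369744_at the L629F mean was 1.25 times the WT mean with chloride and 1.12 times with iodide. The log2 differences were 0.33 ± 0.13 with chloride (95% interval 0.041 to 0.61; adjusted p = 0.353), with groups that did not overlap, and 0.17 ± 0.13 with iodide (-0.11 to 0.46; adjusted p = 0.671). Groups that did not overlap were common in the chloride comparison, at 46.2% of kept probe sets. The average difference was 0.25 ± 0.094 (0.048 to 0.45; unadjusted p = 0.0191, adjusted p = 0.188). On 1370764_a_at the differences were 0.19 ± 0.18 with chloride (-0.20 to 0.59; adjusted p = 0.716), -0.23 ± 0.18 with iodide (-0.63 to 0.16; adjusted p = 0.682) and -0.021 ± 0.13 on average (-0.30 to 0.26; adjusted p = 0.952).

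Neither probe set thus passed for the receptor, where 0.199% of probe sets passed with chloride, 0.177% with iodide and 1.73% for the average. Centring on the array median moved the median receptor difference of the kept probe sets from 0.015 to -0.18, and the 1369744_at average was then 0.035 (adjusted p = 0.815). With quantile scaling it was 0.36 ± 0.071 and passed (adjusted p = 0.0274). The ratio of the probe sets differed between receptors by 0.14 ± 0.26 with chloride (adjusted p = 0.897), 0.41 ± 0.26 with iodide (adjusted p = 0.712) and 0.27 ± 0.18 on average (adjusted p = 0.569). L629F arrays had the higher ratios under each salt without overlap, narrowly so with chloride, and the groups did not overlap in either direction for 42% of the 2832 genes with chloride and 36.1% with iodide.

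Whether iodide acted differently in the lines was tested as an interaction, the iodide change in L629F minus that in WT. It was -0.15 ± 0.19 on 1369744_at (95% interval -0.56 to 0.25), -0.42 ± 0.26 on 1370764_a_at (-0.98 to 0.13; adjusted p = 0.998 for each) and 0.27 ± 0.36 for their ratio (-0.54 to 1.08; adjusted p = 0.997). With limma 0 of 18625 probe sets passed for the interaction, that is 0%, and 746 had an unadjusted p under 0.05. The intervals are wide enough to hold differences between the lines as large as the iodide change itself.

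**Figure D5:**
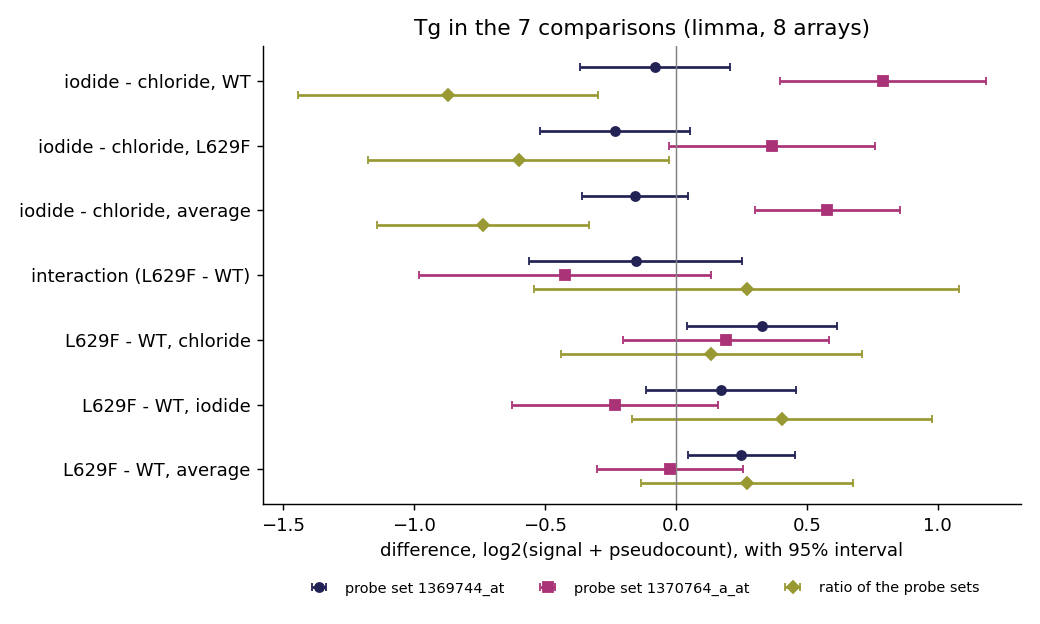
Log2 differences with 95% intervals from the limma fits on 8 arrays for the 7 comparisons, for each Tg probe set and for their ratio. The interval of 1370764_a_at lies above 0 for iodide in WT cells and on average, that of the ratio below 0 for iodide in each line and on average, and that of 1369744_at above 0 for L629F with chloride and on average; none of these passed after adjustment.

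The other genes of hormone synthesis and iodide handling were described by a list of 13, of which 9 were on the array and 5 were kept. For iodide on average 1 of 5 fell and 0 rose, with a median change of -0.22 against -0.0030 over all probe sets, of which 0.644% fell and 0.204% rose. That 1 was Slc5a5, the sodium-iodide symporter (-1.02 ± 0.21, adjusted p = 0.0457), which passed in 2 of 8 fits without 1 array, those without WT iodide replicate 2 or L629F iodide replicate 2. Duox2, an oxidase that supplies the peroxide for iodination of thyroglobulin, had -0.22 ± 0.11 (adjusted p = 0.444), the rat TSH receptor gene Tshr -0.45 ± 0.17 (adjusted p = 0.266) and the deiodinase gene Dio1 -0.054 ± 0.15 (adjusted p = 0.929). For L629F against WT on average 1 of 5 rose and 0 fell, with a median of 0.35 against 0.015 over all probe sets, of which 1.12% rose and 0.607% fell. Duox2 was the 1 that rose, by 0.50 ± 0.11 (adjusted p = 0.0409), and it passed only without WT iodide replicate 1 among the 8 fits without 1 array. Whether the rat Tshr probe set reads the human transgene was not tested.

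Of the 4 thyroid transcription factors that act on the Tg gene or in thyroid development, 0 of 4 passed for iodide or receptor on average in the limma fit. The median iodide change was 0.078. Nkx2-1 had 0.059 ± 0.12 (adjusted p = 0.891), Pax8 -0.079 ± 0.11 (adjusted p = 0.842; -0.40 on its other probe set) and Foxe1 0.098 ± 0.089 (adjusted p = 0.729). Hhex, a homeobox gene of thyroid development, had 0.38 ± 0.087 (adjusted p = 0.0702). At an unadjusted p under 0.05, the 4 genes gave Hhex alone for iodide and none for the receptor. Over all 18625 kept probe sets 0.848% passed for iodide and 1.73% for the receptor on average. An unadjusted p under 0.05 was found in 2274 and 3358 of them, and the median iodide change was -0.0030. At these shares, counts among only 4 genes cannot tell the factors from other probe sets.

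Newly made thyroglobulin is folded in the endoplasmic reticulum by chaperones and disulfide isomerases, and all 25 genes of that list were kept. For iodide on average 1 of 25 fell and 0 rose, 19 of 25 had a negative change, and the median was -0.074. Over all kept probe sets 0.644% fell, 0.204% rose, 49.4% had a positive change and the median was -0.0030. Pdia4, a disulfide isomerase, fell by 0.80 ± 0.14 (adjusted p = 0.0169). Its WT signals were 3382 and 2816 with chloride and 1300 and 1911 with iodide. Its L629F signals were 3080.0 and 3122 with chloride and 1739 and 2240.4 with iodide. Pdia4 thus had all iodide arrays below all chloride arrays, a separation found in 6.27% of kept probe sets in either direction. It passed in 3 of 8 fits without 1 array, those without either WT iodide array or without L629F iodide replicate 2. The chaperone Hspa5, which binds unfolded thyroglobulin, had 0.026 ± 0.11 (adjusted p = 0.955), Hsp90b1 -0.085 ± 0.084 (adjusted p = 0.755), the isomerase Pdia3 -0.24 ± 0.092 (adjusted p = 0.298) and Erp29 -0.16 ± 0.11 (adjusted p = 0.601). For L629F against WT 0 of 25 passed in the limma fit, 5 had an unadjusted p under 0.05, and the median was 0.10. Over all kept probe sets 1.73% passed and 3358 of 18625 had an unadjusted p under 0.05, a share close to that of the list.

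Of the 16 genes of thyroglobulin uptake and breakdown, 14 were kept. For iodide on average 1 of 14 fell and 0 rose, with a median of -0.15 and 10 of 14 negative, against 0.644% that fell and 49.4% positive over all kept probe sets. Ctsd, the lysosomal protease cathepsin D, fell by 0.56 ± 0.11 (adjusted p = 0.0417), and passed only without WT iodide replicate 1 among the 8 fits without 1 array. Ctsb, cathepsin B, had -0.061 ± 0.084 (adjusted p = 0.837) and Lrp2, the endocytic receptor megalin, 0.050 ± 0.20 (adjusted p = 0.95), while Lgals3 was too dim to be tested. For L629F against WT 1 of 14 rose and 0 fell, with a median of 0.023, where 1.12% of all kept probe sets rose. Tgm2, a transglutaminase, rose by 0.57 ± 0.10 on its brightest probe set (adjusted p = 0.0173; 0.22 on its other probe set), and passed in 4 of 8 fits without 1 array. It did not pass without WT chloride replicate 1, either L629F chloride array or L629F iodide replicate 1.

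The probe sets whose signals over the 8 arrays were most like those of Tg were sought among 13919 kept probe sets of other named genes, by Pearson correlation on the log2 scale. For 1369744_at the 5 highest were Smarca5, a chromatin remodelling ATPase, Sufu, a negative regulator of Hedgehog signalling, Prlh, Rpl39l1 and Tenm4, a teneurin, with r of 0.972 to 0.980. The 3 lowest were Fam3c, Tab3 and Bola2 (-0.961 to -0.967). For 1370764_a_at the 5 highest were Epm2aip1, Pomk, a kinase of O-mannosyl glycans, Atp6v1d, a subunit of the vacuolar proton pump, Rpl22, a ribosomal protein, and Prelid3b (0.945 to 0.973). The 3 lowest were Cald1, caldesmon, Medag and Ttc3 (-0.966 to -0.987). None of these 16 passed for iodide or receptor on average, where 0.848% and 1.73% of all kept probe sets did. Among the 16, Cald1 (iodide -0.60, limma adjusted p = 0.08) and Fam3c (receptor -0.42, adjusted p = 0.0647) had the smallest adjusted p. No gene stood in both sets, and with 13919 probe sets searched over 8 arrays such values are a description. Prlh (signals 59 to 236), Tenm4 (13 to 211) and Medag (54 to 172) were dim. Their lowest signals were under 65.4, the signal level of the filter.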

How the data were processed

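The authors deposited 1 linear signal intensity per probe set for each of 8 biotin-labelled RNA samples on single-colour arrays. Per the submitters' processing notes MAS5 made these values, with version, scaling target and detection calls not given in the sources used here. Symbols came from the platform annotation (20764 of 20832 probe sets with 1 symbol matched RefSeq GRCr8).

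The 57 controls and the lowest 40% of probe sets by mean log2 signal were left out. Values were log2(signal + 35.3), with the 25th percentile of all signals as pseudocount and no further scaling. limma 3.58.1 in R 4.3.3 (lmFit, eBayes with an intensity trend) fitted 1 coefficient for each of 4 groups over 18625 probe sets, two-sided, with Benjamini-Hochberg adjustment at 0.05. Within-gene ratios were fitted alike over 2832 genes. The fits were also run on simulated data, with planted changes larger than the Tg changes reported here. That run does not show whether changes of the Tg size would be found. The number of arrays limits the precision (median SE 0.24 log2 within a line).

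Members, gene lists and tests were chosen with earlier results of these data known. Named genes are Tg, the 5 most and 3 least correlated genes per Tg probe set, a set list of thyroid genes whatever their p, further list members past the threshold and the neighbours of Tg; each is given by its brightest probe set. One gene of that list is not reported here. The alternatives changed pseudocount, filter, scaling, variance moderation, covariates, arrays, probe set choice and threshold. Figures were drawn with matplotlib 3.10.9.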

Additional observations from a re-analysis of the deposited data

How the results depend on the processing

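The ratio of the Tg probe sets kept its sign in all 7 comparisons under every alternative run, and it passed in none. Its average iodide change was -0.85 to -0.62 (limma adjusted p 0.458 to 0.996). The average iodide change on 1370764_a_at passed with the lowest 60% left out (0.58), with centring on all probe sets (0.61), with the beta-actin covariate (0.48; added after the data were seen, as was cyclic loess) and with the replicate block (0.58, adjusted p = 0.00122), which also put its WT change past the threshold (0.79, adjusted p = 0.00316). Without 1 array it was 0.45 to 0.71. Deviations of same-numbered arrays correlated at 0.044 to 0.21, all 6 positive and 4 of 6 over 0.1; as not every one was over 0.1 and the labels name no shared batch, the numbers were not taken as pairs, though replicate 2 was the higher on both Tg probe sets in all 4 groups; with the block, 523 probe sets passed for the average in place of 158. Quantile scaling put 1369744_at past the threshold for iodide (-0.38) and receptor (0.36) on average. Signs turned, none past the threshold, with the mean of both probe sets set against 1369744_at (iodide 0.36 in WT, 0.067 in L629F, 0.21 on average; receptor with iodide -0.029), with centring (receptor -0.0065 on 1370764_a_at with chloride, -0.058 on 1369744_at with iodide), with the beta-actin covariate (interaction 0.032 on 1369744_at; receptor -0.11 on 1370764_a_at with chloride) and for the average receptor difference on 1370764_a_at with quantile scaling (0.062) and cyclic loess (0.029). Without 1 array, 1369744_at ranged from -0.26 to 0.10 for iodide in WT, from -0.34 to 0.028 for the interaction and from -0.0081 to 0.36 for the receptor with iodide; 1370764_a_at ranged from -0.49 to 0.021 for the receptor with iodide and from -0.15 to 0.11 for its average. The cause of these changes was not tested. Counts of probe sets past the threshold ranged over the alternatives from 2 to 523 (158 as reported) for iodide on average, 0 to 218 (44) in WT, 0 to 28 (3) in L629F, 24 to 2219 (322) for the receptor on average, 0 to 200 (37) with chloride and 0 to 171 (33) with iodide. Of 21 alternatives each, the calls held in 8 for Slc5a5, 14 for Pdia4, 9 for Ctsd, 16 for Cd74 and 15 for Igfbp5 with iodide, and in 11 for Duox2, 16 for Tgm2 and 20 for Cd74 with the receptor, with no change of sign.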

Other observations

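Thyroglobulin shares its type 1 repeats with other proteins, and 8 of the 14 such genes on the array were kept. For iodide on average 2 of 8 fell and 0 rose, where 0.644% of all kept probe sets fell and 0.204% rose. The change was -0.77 ± 0.12 for Cd74, which encodes the invariant chain of MHC class II (limma adjusted p = 0.0116), and -1.04 ± 0.18 for Igfbp5, a binding protein of insulin-like growth factors (adjusted p = 0.0198), while 2 other probe sets of Igfbp5 gave -0.43 and -0.39. Each passed in 4 of 8 fits without 1 array and did not pass without either WT chloride array, L629F chloride replicate 2 or L629F iodide replicate 1. For L629F against WT 1 of 8 rose, where 1.12% of all kept probe sets did. This was Cd74, with 1.00 ± 0.12 (adjusted p = 0.0020), and it passed in all 8 fits without 1 array. The median iodide change of the 8 was -0.20. Of the cholinesterase relatives of the C-terminal part of thyroglobulin, 7 were on the array and 1, Nlgn2, was kept (-0.25 ± 0.24, adjusted p = 0.75).

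In RefSeq GRCr8 order Tg lies between Phf20l1 and Ccn4, and Sla lies inside it. The brightest Phf20l1 probe set, 1 of 4 kept, had an iodide change of 0.020 ± 0.14 (adjusted p = 0.971) and the others -0.28, 0.37 and -0.24. Ccn4 was too dim to be tested, and no probe set was named for Sla alone.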
